A study of Mus musculus with 6 samples.

Results

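The FOXO and FOXP transcription factors are 7 of the 21951 protein-coding genes of the mouse annotation: Foxo1, Foxo3 and Foxo4, and Foxp1, Foxp2, Foxp3 and Foxp4. They were chosen by name, with earlier results of these data known. For each gene, H3K4me3 peaks were taken within 2500 bp of any annotated transcription start site (TSS) and over the gene body, in a T-cell progenitor and a B-cell progenitor line. A gene was called marked when at least 1 peak overlapped the window around any of its TSSs by 1 bp or more.

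Both families bind DNA through a forkhead domain. FOXO proteins are held in the cytoplasm when Akt, acting downstream of PI3K, phosphorylates them. They enter the nucleus when that signal falls, and there they activate genes of cell cycle arrest, survival and lymphocyte homing. FOXO1 in particular is needed for early B-cell development and for expression of the interleukin-7 receptor. FOXP proteins act mainly as repressors and pair with each other through a leucine zipper. FOXP1 takes part in early B-cell development and in keeping naive T cells quiescent, FOXP3 defines regulatory T cells, FOXP4 is broadly expressed, and FOXP2 is best known from the nervous system. Trimethylation of histone H3 at lysine 4 (H3K4me3) marks the promoters of most expressed genes and of many CpG-rich genes that are not expressed.

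Scid.adh.2C2 is a mouse T-cell progenitor line. It was cloned from Scid.adh, a line grown out of a thymic tumour of CB17-Prkdc scid mice, which carry a defect in antigen receptor recombination. 230-238 is a mouse B-cell progenitor line transformed with the Abelson virus. The labels give no treatment, each is a single transformed line, and each had 2 H3K4me3 ChIP-seq libraries and 1 input library. The authors merged the replicates of a line into 1 list of peaks that were reproducible between them. The lists hold no value per replicate, so no spread and no test can be given, and the depth of the libraries is unknown. Where a gene is said to have no peak, nothing there met the thresholds of the authors' peak calling.

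The Scid.adh.2C2 list held 15513 peaks with a median fold enrichment of 20.3 over background, and the 230-238 list held 19604 peaks with a median of 15.4. They covered 25.8 and 35.9 Mb. Because the scale differed, fold enrichment was read within a list, and the lines were set side by side by the percentile of a gene's highest promoter fold among all marked genes of the same list. The lines carried the marks of their labels. Of 12 T-lineage marker genes, 11 were marked in Scid.adh.2C2 and 4 in 230-238. Of 12 B-lineage markers, 12 were marked in 230-238 and 2 in Scid.adh.2C2. Of 9 genes of myeloid, erythroid, hepatic or stem cells, only Klf1 was marked, in both lines.

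The same 6 of the 7 genes, all but Foxp2, were marked in both lines. Over all protein-coding genes 45.5% were marked in Scid.adh.2C2, 48.2% in 230-238 and 42.2% in both. The lines differed in where the peaks lay and how far they reached. The 7 genes have 62 TSSs, which fall into 27 start regions when TSSs at most 2500 bp apart are joined. Of these, 8 were marked in Scid.adh.2C2 and 11 in 230-238, against 26.0% and 28.7% of the 42960 start regions of all genes. No start region was marked in Scid.adh.2C2 alone, where 2.34% of all regions were, and 3 were marked in 230-238 alone, where 5.02% were. These were 1 internal start of Foxp1 and 2 of Foxp4. Among peaks of 10-fold or more the 3 stayed, and 1 region, that of Foxp1-218, was marked in Scid.adh.2C2 alone, since its 230-238 peak was 9.40-fold.

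Counting every peak at the genes, Scid.adh.2C2 had 11 and 230-238 had 33. Each of the 11 overlapped a peak of the other line, as did 11549 of all 15513 peaks of the Scid.adh.2C2 list. Outside the promoter windows, the gene bodies held 1 peak in Scid.adh.2C2, in Foxo3, and 18 in 230-238, in Foxp1, Foxo3 and Foxp4. Of all genes, 6.68% had such a gene-body peak in Scid.adh.2C2 and 10.0% in 230-238. The 18 peaks were between 5.33- and 14.9-fold, none lay over an exon of its gene or at the promoter of another gene, and 17 overlapped no Scid.adh.2C2 peak. Over the gene-body peaks of all genes in 230-238, 71.7% of 3637 had no partner in the other line. The count depended on the length of the list: when the longer list was reduced to as many peaks as the shorter, 6 of the 18 were left.

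**Figure D1:**
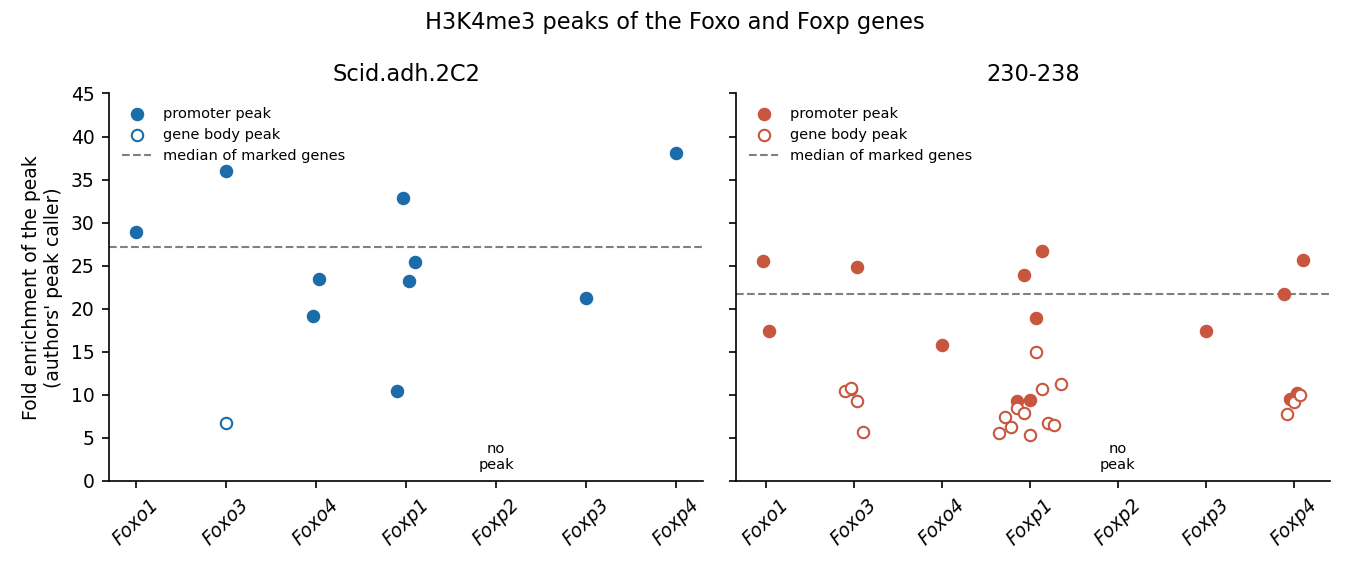
Every H3K4me3 peak at the 7 genes, by its fold enrichment over background (y axis), in Scid.adh.2C2 (left) and 230-238 (right). Filled points are peaks at a TSS window, open points are gene-body peaks, and the dashed line is the median of the highest promoter fold over all marked genes (27.1 and 21.7). The open points number 1 on the left and 18 on the right, and Foxp2 has no peak.

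Foxp1 carried the most peaks. The gene lies on the minus strand at chr6:98925338-99522721 (GRCm38) and spans 597384 bp, with 22 TSSs in 11 start regions. In Scid.adh.2C2 it had 4 peaks, all at start regions. In 230-238 it had 16 peaks, 5 at start regions and 11 in the gene body. Peaks covered 7674 bp in Scid.adh.2C2 and 35387 bp in 230-238, the latter ranking 3 of all 21951 genes. The difference of 27713 bp ranked 2.

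Some promoters of Foxp1 show the contrast, and 3 are given from RefSeq on GRCm38.p6, minus strand, 5′ to 3′, from 250 bases before to 50 after the start, with CpG dinucleotides in capitals. They are the upstream promoter (chr6:99520944-99521243), the internal promoter marked in 230-238 alone (chr6:99266466-99266765) and the internal promoter marked in both lines (chr6:99028249-99028548).
Foxp1 upstream: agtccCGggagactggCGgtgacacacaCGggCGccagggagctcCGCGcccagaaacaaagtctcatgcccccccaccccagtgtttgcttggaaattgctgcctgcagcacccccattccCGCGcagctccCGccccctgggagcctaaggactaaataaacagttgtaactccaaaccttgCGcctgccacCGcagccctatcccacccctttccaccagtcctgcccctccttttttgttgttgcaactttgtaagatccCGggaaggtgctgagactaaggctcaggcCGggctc
Foxp1 internal, 230-238 alone: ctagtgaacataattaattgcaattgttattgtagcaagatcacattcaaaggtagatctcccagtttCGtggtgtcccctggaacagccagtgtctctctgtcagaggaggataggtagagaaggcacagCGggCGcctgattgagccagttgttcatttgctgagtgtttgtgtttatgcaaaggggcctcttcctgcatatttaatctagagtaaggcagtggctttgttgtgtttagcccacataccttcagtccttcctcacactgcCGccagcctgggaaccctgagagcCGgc
Foxp1 internal, both lines: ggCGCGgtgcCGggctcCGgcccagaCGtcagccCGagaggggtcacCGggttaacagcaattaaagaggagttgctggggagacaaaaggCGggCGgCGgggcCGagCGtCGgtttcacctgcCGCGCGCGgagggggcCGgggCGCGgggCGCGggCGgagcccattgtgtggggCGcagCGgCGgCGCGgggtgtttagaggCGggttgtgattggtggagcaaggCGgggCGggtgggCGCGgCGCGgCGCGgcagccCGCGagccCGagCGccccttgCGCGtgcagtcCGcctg
The upstream window holds 13 CpG, the internal one of 230-238 holds 5 and the shared internal one holds 44. As many or fewer CpG are found in 63.7%, 43.6% and 98.1% of the 32851 mouse promoters of the same length.

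At the upstream start region (99520997 to 99522721, 4 TSSs) both lines had a peak, but not over the same TSSs. The Scid.adh.2C2 peak (99521790 to 99523822) was 25.4-fold and covered 2 TSSs, both of transcripts without a coding sequence. It ended 793 bp short of the TSS of Foxp1-220, which encodes the 705-residue protein, and 628 bp short of that of Foxp1-224. The 230-238 peak (99520406 to 99523803) was 26.7-fold and covered all 4 TSSs. Of the 300 bases of the upstream promoter printed above, none lay under the Scid.adh.2C2 peak and all 300 under the 230-238 peak.

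The internal start at 99266515 to 99266532, which lies 256189 bp into the gene, had no peak in Scid.adh.2C2. In 230-238 it lay under a peak of 6709 bp (99260371 to 99267079) that was 18.9-fold and ranked 105 of the 19604 peaks by width. Foxp1-206 starts there and encodes 673 residues. The window is poor in CpG, with an observed to expected ratio of 0.24 in the 1001 bp around the start. The region was marked in 230-238 alone under each of the 6 other settings tried.

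The internal start region at 99027991 to 99028942, 493779 bp into the gene, had the highest Foxp1 peak in Scid.adh.2C2. It was 32.8-fold there over 2613 bp and 23.9-fold over 3191 bp in 230-238, and in both lines all 6 TSSs lay under it. A smaller peak followed at its downstream side in both lines, 10.4-fold in Scid.adh.2C2 and 9.27-fold in 230-238. The complete transcripts from this region encode 576 and 577 residues with a start codon at 99016647, whereas the start codon of the longer forms lies at 99163018. The last shared region, the TSS of the incomplete transcript Foxp1-218 at 99096205, had a 23.2-fold peak in Scid.adh.2C2, which ranked 6413 of 15513, and a 9.40-fold peak in 230-238, which ranked 15111 of 19604. The summits of these peaks lay at 99095565 and 99095575.

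The other 7 start regions of Foxp1 had no peak in either line. They include the starts at 99435345 to 99436396 and at 99163018, from which 8 annotated complete coding transcripts begin. The 5 of these at 99163018 have their start codon at that same base, so the models hold nothing ahead of the coding sequence. Whether transcription starts there cannot be told from these models. Of the 11 gene-body peaks of 230-238, 9 lay ahead of the internal start that 230-238 alone marked, with summits between 147107 and 248032 bp from the most upstream TSS, and 2 lay further on. The broadest (99333814 to 99339052) was 5239 bp long and 14.9-fold. A 10.7-fold peak of 2412 bp lay ahead of it in the direction of transcription, across a gap of 83 bp. The next highest was 11.3-fold over 3526 bp (99373757 to 99377282). Together the 11 covered 18285 bp. By the number of gene-body peaks in 230-238 Foxp1 ranked 5 of all genes, level with Tec, Gm20696 and Prkce. Of the 998 genes of 200000 bp or more, 3 had more such peaks and 688 had none. The number depended on the list: 7 of the 11 were left among peaks with the highest reproducibility score, 7 after merging peaks within 1000 bp, and 3 at 10-fold or more or with equal numbers of peaks.

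**Figure D2:**
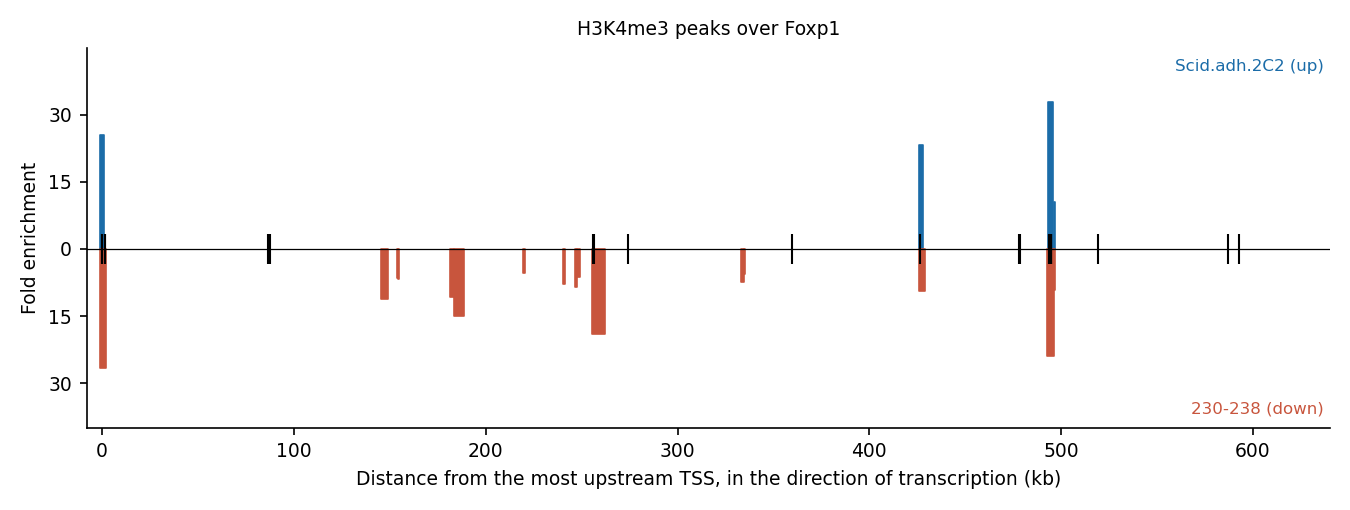
H3K4me3 peaks along Foxp1, by distance from the most upstream TSS in the direction of transcription (x axis, kb). Each block spans a peak and is as tall as its fold enrichment over background (y axis), upward for Scid.adh.2C2 and downward for 230-238, and the black ticks are the TSSs. Between 147107 and 256189 bp from the most upstream TSS 230-238 has a series of peaks, the last of them 6709 bp wide at an internal start, where Scid.adh.2C2 has none.

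Foxp4 (chr17:47867133-47924645, minus strand) showed the same kind of difference on a smaller scale. Its main start region, with 5 TSSs at 47924400 to 47924645, was marked in both lines. The peak was 38.1-fold over 3133 bp in Scid.adh.2C2, rank 524 of 15513, and 25.6-fold over 4445 bp in 230-238, rank 2216 of 19604. Both overlapped the window of the antisense transcript Gm15556. The percentile was 93.7 in Scid.adh.2C2 and 75.7 in 230-238.

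In 230-238 alone, 2 further start regions of Foxp4 were marked, both of transcripts without a coding sequence. A 21.7-fold peak of 4012 bp (47876072 to 47880083) covered the TSS at 47878953, and peaks of 9.56- and 10.2-fold lay at the TSSs at 47888150 to 47888433. The stronger of these internal starts is shown on GRCm38.p6, minus strand (chr17:47878904-47879053), with CpG in capitals, because its peak was the highest that any of the genes had in 230-238 alone.
Foxp4 internal: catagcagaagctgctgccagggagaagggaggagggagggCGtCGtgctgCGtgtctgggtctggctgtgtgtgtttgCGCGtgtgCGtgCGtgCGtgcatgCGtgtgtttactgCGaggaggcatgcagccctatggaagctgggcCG
These 150 bases hold 11 CpG. Gene-body peaks of 7.83-, 9.22- and 10.0-fold were also present only in 230-238. Peaks covered 3133 bp of Foxp4 in Scid.adh.2C2 and 12153 bp in 230-238.

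Foxp3 (chrX:7573644-7595245, plus strand), the defining factor of regulatory T cells, was marked in both lines, but not at the starts of its complete coding transcripts. The peak was 21.3-fold over 2304 bp in Scid.adh.2C2 (7573056 to 7575359) and 17.5-fold over 2754 bp in 230-238 (7572799 to 7575552). It covered the TSS at 7573644 of Foxp3-209, a transcript annotated as incomplete. The same peak lay at the promoters of Ppp1r3f, which encodes a regulatory subunit of protein phosphatase and has a TSS 604 bp away, and of Flicr, a long noncoding RNA known to lower Foxp3 expression, with a TSS 44 bp away. Which of these genes the mark belongs to cannot be told apart. The start regions at 7579567 to 7580483 and at 7586273 to 7586355, where every transcript with a complete protein of 394 to 429 residues begins, had no peak in either line. Both windows are printed for comparison, on GRCm38.p6, plus strand, with CpG in capitals: the marked upstream start (chrX:7573544-7573693) and the unmarked promoter of the coding transcripts (chrX:7579426-7579725, from RefSeq).
Foxp3 upstream, marked: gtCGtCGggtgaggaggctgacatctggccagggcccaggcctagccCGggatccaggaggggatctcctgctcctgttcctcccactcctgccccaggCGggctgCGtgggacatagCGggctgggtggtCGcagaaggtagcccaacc
Foxp3 coding, unmarked: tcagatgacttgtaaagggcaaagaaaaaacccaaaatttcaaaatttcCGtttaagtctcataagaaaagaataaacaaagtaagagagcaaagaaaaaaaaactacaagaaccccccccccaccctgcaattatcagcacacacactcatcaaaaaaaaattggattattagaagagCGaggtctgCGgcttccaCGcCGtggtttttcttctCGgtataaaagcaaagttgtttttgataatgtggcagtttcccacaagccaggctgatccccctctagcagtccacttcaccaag
The marked window of 150 bases holds 7 CpG, and the unmarked window of 300 bases holds 6. With a promoter window of 5000 bp instead, 4 of the 7 TSSs of Foxp3 were counted as marked in Scid.adh.2C2 and 5 in 230-238, where 1 was with 2500 bp.

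Foxp2 (chr6:14901349-15441977, plus strand) had no peak at any of its 16 TSSs in 6 start regions, none over its 540629 bp and none within 100000 bp on either side. Its most upstream start region has a CpG ratio of 0.87, within the range of the regions of the other genes that were marked in both lines (0.34 to 1.055). It was the highest ratio of the 16 unmarked regions, followed by 0.68 at the TSS of Foxp1 at 98929785.

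Foxo1 (chr3:52268336-52353221, plus strand), the FOXO factor best known in lymphocyte development, has 1 annotated TSS. In Scid.adh.2C2 a single peak of 3767 bp (52267351 to 52271117) was 28.9-fold and covered it. In 230-238 the mark was split: a peak of 1946 bp ahead of the TSS (52266303 to 52268248) was 25.5-fold, and a peak of 6528 bp after it (52268378 to 52274905) was 17.4-fold and ranked 122 of 19604 by width. The gap of 129 bp between them, which holds the TSS at 52268336, is shown on GRCm38.p6, plus strand (chr3:52268249-52268377), with CpG in capitals.
Foxo1 gap: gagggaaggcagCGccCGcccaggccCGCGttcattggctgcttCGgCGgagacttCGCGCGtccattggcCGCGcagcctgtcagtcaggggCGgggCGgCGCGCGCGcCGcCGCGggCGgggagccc
It holds 21 CpG. The RefSeq promoter around it (chr3:52268087-52268386) holds 31 in 300 bases, which 90.5% of promoters do not exceed, and 171 of the 300 lay under the 230-238 peaks. Peaks covered 3767 bp in Scid.adh.2C2 and 8474 bp in 230-238. The antisense transcript Gm20402 has its TSS 1099 bp away, under the same peaks. Downstream of the gene, 230-238 alone had 3 peaks away from any TSS, of 9.41-, 8.19- and 16.1-fold, 41913, 46041 and 47606 bp from the end of Foxo1.

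Foxo3 (chr10:42181841-42276755, minus strand) had the widest single peak of the 7 genes in Scid.adh.2C2. Its promoter peak there (42273726 to 42278946) was 5221 bp long, rank 113 of 15513 by width, and 36.0-fold, rank 911 by fold. In 230-238 the same stretch held a 24.8-fold peak of 3624 bp (42275352 to 42278975) and a 10.7-fold peak of 1638 bp, 432 bp apart. Both lines had a peak further inside the gene, 6.69-fold over 799 bp in Scid.adh.2C2 and 9.30-fold over 1486 bp in 230-238. 3 other gene-body peaks were seen in 230-238 alone, of 10.4-, 10.7- and 5.68-fold. Its percentile stood at 88.9 in Scid.adh.2C2 and at 71.4 in 230-238. Taken by −log10 q-value in place of fold, the percentiles were 74.5 and 79.6, so that no direction can be read for Foxo3.

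Foxo4 (chrX:101254528-101260873, plus strand) had the narrowest mark. In Scid.adh.2C2 it had peaks of 415 bp, 19.1-fold, and 1662 bp, 23.4-fold, 125 bp apart, and in 230-238 a single peak of 2248 bp, 15.7-fold, over the same stretch. All 3 TSSs lay under the peaks of each line. Its percentile of 17.5 in 230-238 was the lowest of the 6 marked genes there, and in Scid.adh.2C2 it was 32.7.

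**Figure D3:**
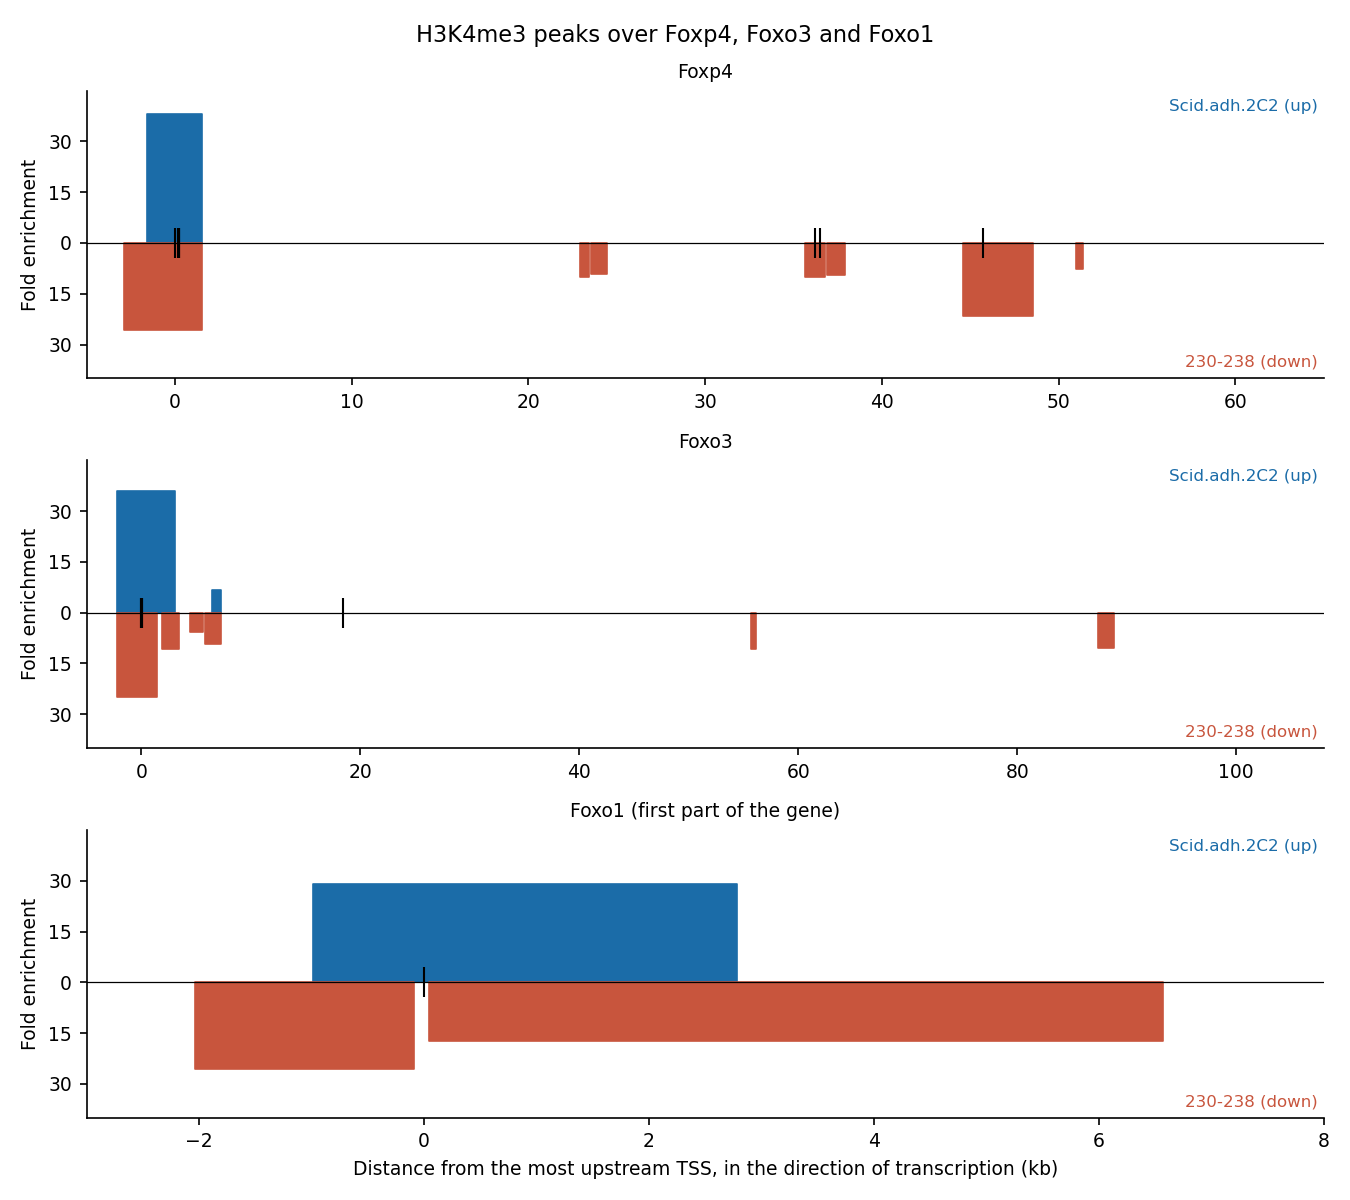
H3K4me3 peaks along Foxp4, Foxo3 and the start of Foxo1, by distance from the most upstream TSS (x axis, kb), drawn as for Foxp1 with fold enrichment on the y axis. Foxp4 has peaks at internal starts in 230-238 alone, and the 230-238 mark of Foxo1 is split by 129 bp at the TSS, where the Scid.adh.2C2 peak is unbroken.

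In order of the highest promoter fold within Scid.adh.2C2, the genes ran Foxp4 (38.1), Foxo3 (36.0), Foxp1 (32.8), Foxo1 (28.9), Foxo4 (23.4) and Foxp3 (21.3), where the median of all marked genes was 27.1. Within 230-238 the order was Foxp1 (26.7), Foxp4 (25.6), Foxo1 (25.5), Foxo3 (24.8), Foxp3 (17.5) and Foxo4 (15.7), where the median was 21.7. The 4 highest genes were the same in both lines, as were the 2 below the median, Foxo4 and Foxp3, which both lie on chromosome X. Whether neighbours in these orders differ cannot be said without replicate values. The percentile was higher in 230-238 by 16.1 points for Foxo1 (59.2 and 75.2) and by 2.96 for Foxp1 (78.3 and 81.3). The same difference was -15.3 points for Foxo4, -17.5 for Foxo3 and -17.9 for Foxp4, and Foxp3 stood at 23.4 and 24.6. With the −log10 q-value as the height the sign turned for Foxo3 and Foxp3, and the difference became 5.85 points for Foxo1, 9.63 for Foxp1, -5.78 for Foxo4 and -23.8 for Foxp4. The Foxp1 differences set unlike promoters side by side. Its highest peak lay at the internal start region at 99027991 to 99028942 in Scid.adh.2C2 and at the upstream one in 230-238. Ranked among all peaks of a list, the internal peak stood at 88.25 in Scid.adh.2C2 and 83.21 in 230-238. The upstream peak stood at 65.66 and 91.47.

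All 6 marked genes had more bases under peaks in 230-238. So did 6993 of the 9261 genes marked in both lines (75.5%), with a median difference of 330.0 bp, and the median over the 6 genes was 4266 bp. For Foxo4 the difference was 171 bp and for Foxp3 450.0 bp, for Foxo3 3825 bp, for Foxo1 4707 bp, for Foxp4 9020 bp and for Foxp1 27713 bp. Within the promoter windows alone, the difference was 919 bp for Foxo1 and 5784 bp for Foxp1, and the sign turned for Foxo3, which had 4751 bp in Scid.adh.2C2 and 4348 bp in 230-238. At 10-fold or more it was 16801 bp for Foxp1 and 1960.0 bp for Foxo3, and with equal numbers of peaks 1157 bp for Foxo3. The median distance between the summits of overlapping peaks was 388 bp over the 11 pairs at the 7 genes and 60.0 bp over 11549 pairs in all. The quartiles overlapped widely, at 33.0 and 715.5 bp for the 7 genes and 19.0 and 368 bp in all. The pairs were not independent, since 4 of the 11 lay at Foxp1.

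**Figure D4:**
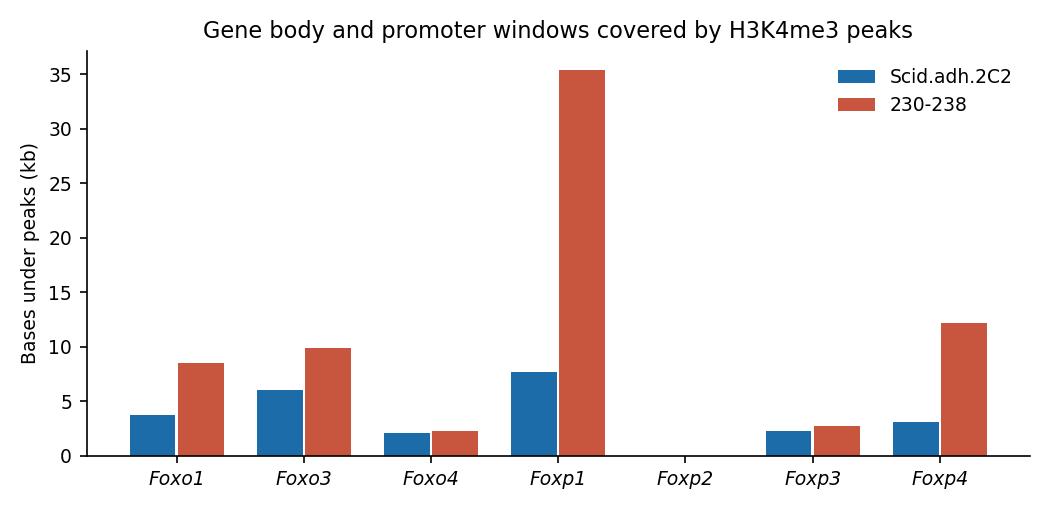
Bases under H3K4me3 peaks over the gene body and TSS windows (y axis, kb) for each gene, in Scid.adh.2C2 and 230-238. The bars are single values from 1 combined list a line, so they have no error. Foxp1 stands at 7674 bp against 35387 bp, and Foxo4 and Foxp3 are nearly level.

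The start regions marked in both lines were rich in CpG, with a median observed to expected ratio of 0.80 over the 8 regions of the 7 genes and 0.73 over 10164 regions of all genes. The exception was Foxp1-218, at 0.34. The 3 regions marked in 230-238 alone had ratios of 0.24, 0.24 and 0.33, where the median of the 2156 such regions was 0.38. The 16 unmarked regions had a median of 0.25, against 0.24 over 29622.

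RefSeq held promoter windows for Foxo1, Foxo3, Foxp1, Foxp3 and Foxp4, 8 in all, and 6 motifs were searched in them on both strands, of which the long and short forkhead forms overlap. The forkhead motif TGTTTAC was in 0 of the 8 and in 3.65% of all 32851 promoters, and its short core TGTTT was in 6 and in 50.5%. The RUNX motif TGTGGTT was in 0 and in 5.27%, and the ETS motif GGAAGT in 0 and in 23.8%. The inner core of the EBF1 motif, CCCNNGGG, was in 3 (Foxo1, Foxo3 and the upstream promoter of Foxp1) and in 13.7%, and the E-box CAGGTG was in 2 (Foxp4 and the shared internal promoter of Foxp1) and in 20.2%. The windows of 150 bases printed for the upstream start of Foxp3 and the internal start of Foxp4 are not RefSeq promoters and are shorter, so they stand outside these shares. TGTTTAC was in the Foxp4 window 1 time, inside 1 of its 2 matches to TGTTT, and the Foxp3 window held none of the 6 motifs. A match describes letters only.

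The related gene lists were read beside all 21951 genes, of which 42.2% were marked in both lines, 3.28% in Scid.adh.2C2 alone, 5.96% in 230-238 alone and 10662 genes in neither. Of the 37 other forkhead genes of the annotation, 11 were marked in both lines and 25 in neither, which includes Foxo6, named after its state was seen. Foxb1, a developmental factor of the brain, was the only gene marked in 1 line, at 31.5-fold in Scid.adh.2C2. The highest folds in both lines belonged to Foxd2, Foxk2 and Foxm1, the last a regulator of mitotic genes: 36.7, 35.2 and 34.6 in Scid.adh.2C2 and 24.3, 27.3 and 24.8 in 230-238.

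Upstream of the FOXO proteins, 29 of 36 genes of the PI3K-Akt arm were marked in both lines, 1 in Scid.adh.2C2 alone (3.28% of all genes), 4 in 230-238 alone (5.96%) and 2 in neither. Pik3r1, the regulatory subunit of PI3K, had the highest fold in both lines, at 41.98 in Scid.adh.2C2 and 29.3 in 230-238. Next came Rictor (38.1), a subunit of the mTORC2 complex, and the acetyltransferase Ep300 (35.2) in Scid.adh.2C2, and the 14-3-3 gene Ywhab (27.8) and the kinase Stk4 (27.5) in 230-238. The catalytic subunit Pik3cb was marked in Scid.adh.2C2 alone, at 19.8-fold. Those marked in 230-238 alone included the 14-3-3 gene Ywhaz (26.8) and the kinases Sgk3 (18.8) and Sgk1 (12.9), which phosphorylate FOXO proteins.

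Among 40 genes known as FOXO targets, 22 were marked in both lines, 3 in Scid.adh.2C2 alone (3.28% of all genes), 8 in 230-238 alone (5.96%) and 7 in neither. Those of Scid.adh.2C2 alone were Tbx21 (22.3-fold), a factor of effector T cells, and Rag1 (16.5) and Rag2 (8.20), the recombinase genes of antigen receptor loci. Those of 230-238 alone included the B-cell signalling genes Blnk (20.9), Syk (17.2) and Cd22 (18.3) and the B-cell regulator Bach2 (26.3). Also among them were S1pr1 (30.7), a receptor for lymphocyte egress, the cyclin Ccnd2 (20.4) and the pro-apoptotic Pmaip1 (26.6). Blnk and Cd22 also served as B-lineage markers. Highest were Sod2 (36.9), Cdkn1b (35.7) and Insr (34.0) in Scid.adh.2C2, and Fbxo32 (31.5), Trib1 (31.1) and Sesn3 (31.0) in 230-238. Il7r was marked in both lines, at 20.1- and 13.9-fold, and Klf2 at 15.3- and 20.1-fold.

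Of 30 FOXP partners and FOXP3-linked genes, 15 were marked in both lines, 7 in Scid.adh.2C2 alone (3.28% of all genes), 3 in 230-238 alone (5.96%) and 5 in neither. Those of Scid.adh.2C2 alone were the interleukin-2 receptor chain Il2ra (21.8), Nfatc2 (22.1), which binds FOXP3, the chromatin organizer Satb1 (26.1), the Ikaros family gene Ikzf2 (28.4), and the surface protein genes Nrp1 (23.2), Gpr83 (14.3) and Izumo1r (7.40). Of these 7, Il2ra had 1 gene-body peak outside the promoter windows in Scid.adh.2C2 and 4 in 230-238. Ikzf2 had 3 and 0, and Nrp1 had 1 and 0. Those of 230-238 alone included Ikzf4 (23.3) and Lrrc32 (9.52). The highest folds were those of the chromatin regulators Kat5 (36.8), Gatad2a (34.1) and Hdac1 (33.9) in Scid.adh.2C2, and of Entpd1 (28.9), which encodes the ectonucleotidase CD39, Gatad2b (27.5) and Runx1 (27.2) in 230-238. The median highest fold of marked genes was 22.8 in Scid.adh.2C2 and 21.1 in 230-238 for these genes, 26.4 and 22.3 for the FOXO targets, 26.4 and 20.8 for the PI3K-Akt arm and 27.9 and 21.03 for the other forkhead genes.

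**Figure D5:**
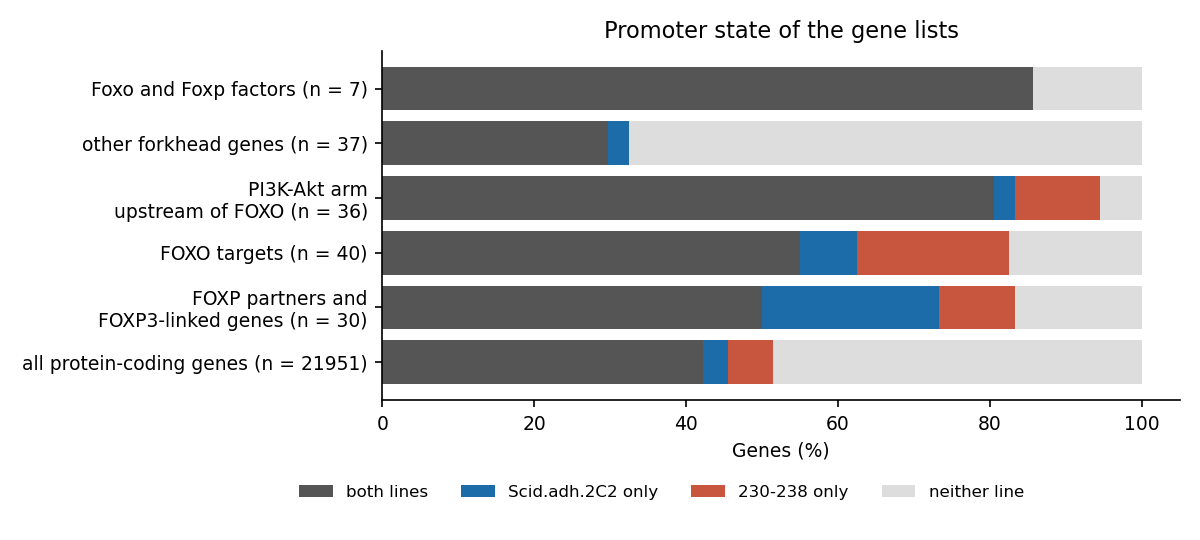
Share of genes (x axis, percent) with H3K4me3 promoter peaks in both lines, in 1 line alone or in neither, for the FOXO and FOXP factors, the related gene lists and all protein-coding genes. The FOXO and FOXP bar has no gene marked in 1 line alone, whereas the FOXO targets have 3 and 8 such genes and the FOXP-linked list has 7 and 3.

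Over the percentiles in the 2 lines, the genes of these lists nearest to each factor, of 142 compared, were Ctbp1 and Bcl2l11 for Foxo1, Ep300 and Foxm1 for Foxo3, Hdac7 and Foxj1 for Foxo4, Cbfb and Gatad2b for Foxp1, Xpo1 and Foxj1 for Foxp3, and Rictor and Foxd2 for Foxp4. The distances ran from 2.00 points (Foxp4 and Rictor) to 12.4 points (Foxo4 and Foxj1). With 2 lists this is a description of height alone.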

How the data were processed

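H3K4me3 ChIP-seq was carried out with an antibody from Millipore in 2 mouse progenitor lines, with 2 ChIP libraries and 1 input library a line. The authors trimmed reads with Trim Galore (0.6.7), mapped them to GRCm38 with Bowtie2 (2.4.4), called narrow peaks with MACS2 (2.2.7.1) at a q-value of 0.05 and kept peaks that passed an irreproducible discovery rate (IDR) of 0.05 between replicates. Each deposited list, 1 a line, gives per peak an IDR score, the fold enrichment over background, −log10 p-value, −log10 q-value and the summit, all from the authors' peak caller.

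From these lists, promoter windows of 2500 bp either side of each TSS of GENCODE release M21 were overlapped with peaks (minimum 1 bp), with pandas 2.3.3 and numpy 2.4.6. TSSs at most 2500 bp apart formed a start region. Splitting a broad domain into peaks is a step of the narrow peak caller, so peak numbers and gaps depend on it. The overlaps were tested on simulated data. Promoter sequences came from RefSeq (GRCm38.p6) and others from the genome of that build. The 7 genes and the lists were chosen with earlier results of these data known. Named genes are the 7 factors, genes sharing their promoter peaks, list genes marked in 1 line alone, the 3 highest of each list and line, and the 2 nearest in height; Foxo6, Il7r, Klf2 and genes tied in rank were named after their values were seen. Folr4 of the FOXP list was not matched, and some list genes that the rule names are counted but not reported by name here. Alternatives were other windows, stricter peaks, equal list lengths, other heights, merged peaks and other TSS choices.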

Additional observations from a re-analysis of the deposited data

How the results depend on the processing

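Foxp2 aside, the 6 genes stayed marked in both lines, and Foxp2 unmarked, with windows of 1000 and 5000 bp, at 10-fold or more, with the highest reproducibility score, with equal numbers of peaks, with the summit inside the window, with coding TSSs alone and with the most upstream TSS alone. For Foxp3 the settings of coding TSSs and of the most upstream TSS both keep the TSS of the incomplete transcript Foxp3-209. They could therefore not unmark the gene. The start regions of its complete coding transcripts had no peak with the 2500 bp window. In 6 settings chosen after seeing the data, the 3 start regions of 230-238 alone stayed 3, and the 0 of Scid.adh.2C2 alone became 1 at 10-fold or more. The count of gene-body peaks in 230-238 was less stable: of 18, 6 were left at 10-fold or more, 11 after merging peaks within 1000 bp, and, in settings chosen after seeing the data, 6 with equal numbers of peaks and 13 with the highest score. In Scid.adh.2C2 the count of 1 became 0 at 10-fold or more and 2 with a window of 1000 bp. Percentile differences (230-238 minus Scid.adh.2C2) turned for Foxo3, from -17.5 to 5.06 points with −log10 q or p as the height, and for Foxp3, from 1.17 to -1.53 with either and to -0.71 with equal numbers of peaks. With the same heights it became 5.85 for Foxo1, 9.63 for Foxp1 and -5.78 for Foxo4, and ranked among all peaks it became -8.08 for Foxo4 and -7.93 for Foxp4. The Foxp1 value compares peaks at different start regions of the gene. Within promoter windows alone, the difference in bases under peaks turned for Foxo3, to -403 bp. The cause of these changes was not tested. No paired analysis was possible because each line has 1 combined list and no result comes from a test. No replicate could be left out for the same reason, and the depth of the libraries is unknown.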

Other observations

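Within 100000 bp of the genes, peaks away from any TSS were found near Foxo1, Foxo4, Foxp3 and Foxp4 and not near Foxo3, Foxp1 or Foxp2. The pair downstream of Foxp3, 53059 and 53856 bp from the gene in Scid.adh.2C2, was 22.0- and 15.5-fold there, above the 21.3-fold of the Foxp3 upstream promoter for the first of them, and 11.97- and 7.53-fold in 230-238. The pair downstream of Foxo4 was 23.1- and 16.2-fold in Scid.adh.2C2 and 17.7- and 14.7-fold in 230-238. Near Foxp4 the lines had no such peak in common: 2 of 6.56- and 8.47-fold lay upstream in Scid.adh.2C2, and 3 of 9.10-, 10.7- and 11.5-fold in 230-238.

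Both genes with the lowest percentiles, Foxo4 and Foxp3, lie on chromosome X. The median percentile of marked genes of that chromosome was 42.3 in Scid.adh.2C2 (281 genes) and 41.3 in 230-238 (291 genes), against 50.4 and 50.3 for autosomal genes. Foxo4 stood at 32.7 and 17.5 and Foxp3 at 23.4 and 24.6.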
